A study of Mus musculus with 9 samples.

Results

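The 4 neighbouring genes of the protamine cluster on mouse chromosome 16 include those of both protamines, which pack the DNA of the sperm head, and the balance between their transcripts was measured in testes of mice with and without an edited Prm2 gene. The 4 loci were MSTRG.8525, MSTRG.8526, MSTRG.8527 and MSTRG.8528, out of 50485 rows in the count table, and were read as Tnp2, Prm3, Prm2 and Prm1 from their order along the chromosome. When a round spermatid becomes a sperm, most histones leave the chromatin, transition proteins such as TNP2 take part in the exchange, and the arginine-rich protamines PRM1 and PRM2 then condense the DNA. Mouse PRM2 loses its N-terminal part, cP2, while the DNA condenses, and what is left is mature PRM2. Prm3 encodes an acidic protein that is found in the cytoplasm. Transcripts of these genes are made in round spermatids and stored before translation, and the proportion of PRM1 to PRM2 protein is characteristic of a species.

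Testes of adult males were compared in 3 genotypes with 3 mice each. Each library was 1 mouse, and the labels give no batch or date. WT mice carried unedited Prm2. Prm2+/Δc mice had 1 wildtype allele and 1 Prm2Δc allele, in which the cP2 coding part was deleted with Cas9 and a repair template while mature PRM2 remained under the endogenous promoter. Prm2-/Δc mice had the Prm2Δc allele and a second Prm2 allele that carries a deletion from an earlier line, and the sample labels call this group hom. The strain in the labels is C57BL/6, and the founders of the edited line were hybrids with DBA2 that were then backcrossed.

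The site of the edit is shown because the ratios have Prm2 as their denominator, with the guide sequences of the study's design. On GRCm38 both guides match exon 1 of Prm2, guide 1 on the plus strand at chr16:10791978-10791997 and guide 2 on the minus strand at chr16:10791867-10791885. The capitals mark the bases next to the target that Cas9 needs (the protospacer adjacent motif), and the last line gives the 125 coding bases between the cut sites on the minus strand, chr16:10791870-10791994, which are not the sequenced allele.
guide 1: cctcattcggtagcgaaccaTGG
guide 2: ggactatgggaggacacacAGG
between the cut sites: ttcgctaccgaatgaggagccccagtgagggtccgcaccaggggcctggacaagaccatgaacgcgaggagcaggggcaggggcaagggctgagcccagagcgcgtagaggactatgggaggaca
The libraries were made from the 3′ ends of transcripts, and 385 of the 621 bases of the shorter Prm2 transcript lie downstream of the second cut. A count of Prm2 is therefore not split by allele and checks no genotype label, and whether the Prm2- allele gives counted transcript was not tested.

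Each of the 4 genes has an annotated start of its own, and the 100 bases before it in RefSeq (GRCm38.p6, minus strand) are shown to set these neighbours side by side. The motifs were chosen after the sequences had been seen. The windows are chr16:10788656-10788755 for Tnp2, chr16:10790915-10791014 for Prm3, chr16:10792106-10792205 for Prm2 and chr16:10796824-10796923 for Prm1. Capitals mark matches on either strand to TATA, the core of the TATA box, or to TGACNTCA, which includes the cAMP response element TGACGTCA.
Tnp2: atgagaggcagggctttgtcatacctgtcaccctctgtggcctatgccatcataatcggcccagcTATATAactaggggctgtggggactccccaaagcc
Prm3: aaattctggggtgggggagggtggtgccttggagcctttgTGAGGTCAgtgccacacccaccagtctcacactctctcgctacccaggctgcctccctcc
Prm2: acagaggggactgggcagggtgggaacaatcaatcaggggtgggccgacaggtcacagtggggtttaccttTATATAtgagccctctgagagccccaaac
Prm1: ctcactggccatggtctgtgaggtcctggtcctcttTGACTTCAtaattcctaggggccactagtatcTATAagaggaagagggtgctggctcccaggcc
TATA first occurred 35 bases before the start of Tnp2, 29 before that of Prm2 and 32 before that of Prm1, and these letters were not in the window of Prm3. TGACNTCA occurred in the windows of Prm3 and Prm1, at 60 and 64 bases before the start, and TGACGTCA in none of the 4. Of 32851 mouse promoters, 15.2% held TATA in this window, 4.63% held TGACNTCA and 1.15% held TGACGTCA.

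The names of the 4 loci rest on genome order, which no sequence in the table checks. All 5 named loci of chromosome 16 lie in the order of their genes, and none of the 4 genes has a row under its Ensembl identifier. The nearest named locus below is 74 loci away, in a stretch where 91 annotated genes lack a row of their own. Up to the nearest named locus above there are 26 loci and 35 such genes. Counting loci in genome order therefore cannot alone assign a gene to a locus number. Their annotated positions are 10787936 to 10788660 for Tnp2, 10790505 to 10790914 for Prm3, 10791380 to 10796134 for Prm2 and 10796326 to 10805839 for Prm1. The 4 loci had between 9369 and 400873 counts in a library, and the 5 loci on each side had at most 383. An antisense gene, Gm46563, overlaps the longer transcript of Prm1, and the sources used here do not state whether strand was used in counting, so reads of this partner could not be told apart from those of Prm1.

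Total counts per library were 9070746, 11314641 and 16799651 for WT mice, 12041708, 16347645 and 20320362 for Prm2+/Δc mice and 14789266, 17441824 and 12409510 for Prm2-/Δc mice. The library of Prm2-/Δc replicate 3 stood apart from the other 8. Over 9909 loci with a mean of at least 100 normalized counts (counts divided by DESeq2's size factors), its highest Spearman correlation with any other library was 0.879, while every other library reached at least 0.910 with one of the others. Its depth was within the range of the others. Results that this library changed are therefore also given without it.

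Prm1, the protamine of all mammals, took the largest share of counts among the 4 loci in every library. By replicate number, WT mice had shares of 1.60%, 1.91% and 1.41%, Prm2+/Δc mice 1.37%, 1.44% and 1.64%, and Prm2-/Δc mice 1.14%, 1.44% and 3.23%. The highest and the lowest value both came from Prm2-/Δc testes, and the ranges of the 3 genotypes overlapped. WT testes had a mean of 1.64% ± 0.250 (SD, n = 3), Prm2+/Δc testes of 1.48% ± 0.138 and Prm2-/Δc testes of 1.93% ± 1.13, and the 2 remaining Prm2-/Δc libraries had a mean of 1.29% without replicate 3. Prm1 was the most abundant locus of the Prm2-/Δc replicate 3 library and ranked 2 or 3 in the others.

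Prm2 took 0.809%, 0.740% and 0.886% of the counts in WT, 0.682%, 0.722% and 0.745% in Prm2+/Δc and 0.807%, 0.805% and 0.953% in Prm2-/Δc libraries. It held rank 5 in all 9 libraries. The Prm2-/Δc libraries all lay above the Prm2+/Δc libraries, while both genotypes overlapped with WT. The mean of WT testes was 0.811% ± 0.0728 (SD, n = 3), that of Prm2+/Δc testes 0.716% ± 0.0322 and that of Prm2-/Δc testes 0.855% ± 0.0849, or 0.806% without replicate 3.

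Tnp2, the transition protein of the cluster, took 0.569%, 0.553% and 0.561% of the counts in WT, 0.524%, 0.592% and 0.551% in Prm2+/Δc and 0.638%, 0.628% and 0.618% in Prm2-/Δc libraries. The 3 Prm2-/Δc values lay above the other 6. The means were 0.561% ± 0.00817 (SD, n = 3), 0.556% ± 0.0343 and 0.628% ± 0.0101 in the same order of genotypes, and the last was 0.633% without replicate 3. Prm3 was the least abundant of the 4, with 0.103%, 0.102% and 0.121% in WT, 0.0963%, 0.0945% and 0.0986% in Prm2+/Δc and 0.103%, 0.108% and 0.0766% in Prm2-/Δc libraries. Its lowest share was again that of Prm2-/Δc replicate 3, where it ranked 146 against 64 to 90 elsewhere.

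**Figure D1:**
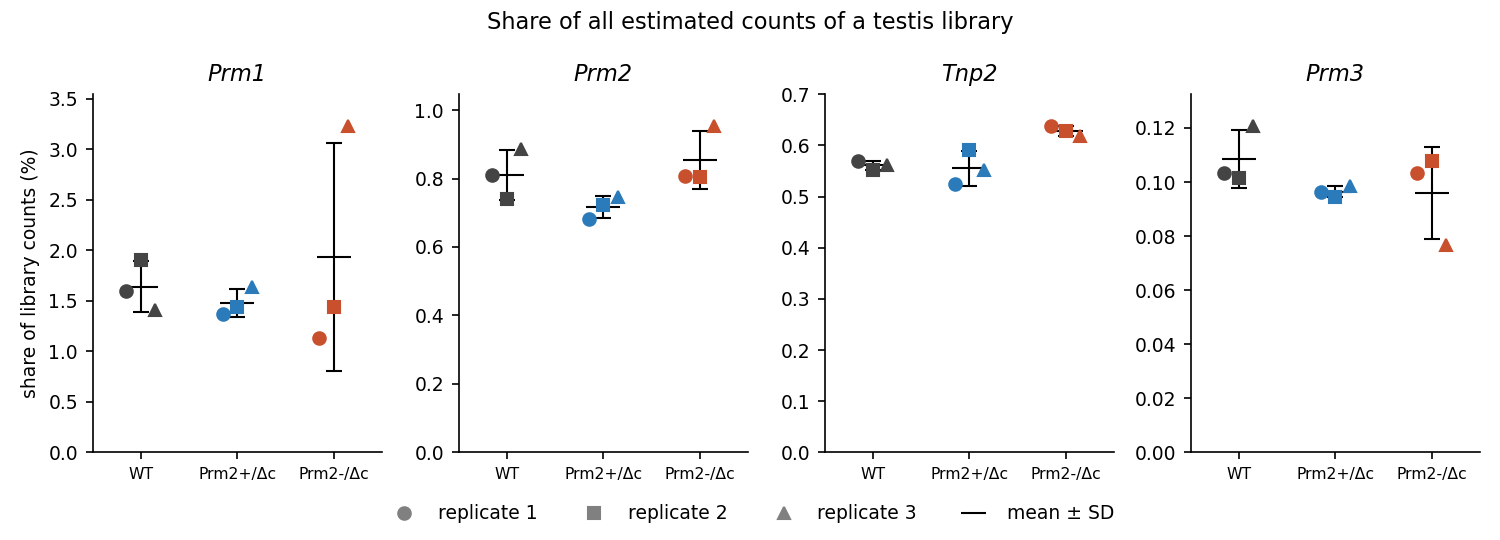
Share of all estimated counts of a library (%) taken by each of the 4 loci, with 1 point per mouse, symbols for the replicate number and bars for the mean ± SD of 3 mice. Prm1 reached 3.23% in Prm2-/Δc replicate 3, while the 3 Tnp2 shares of Prm2-/Δc testes, 0.618% to 0.638%, lay above all others.

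The widest 95% Wilson interval of a single share reached 2.02% of the share to either side for Prm3 and 0.860% for Tnp2, and was narrower for Prm2 and Prm1. Nothing shows that the counts are separate molecules, so that these intervals cover counting error only. A share also depends on the rest of the library. The most abundant row of the table, MSTRG.9667 (unnamed), held 5.49% to 10.6% of 8 libraries and 2.50% of Prm2-/Δc replicate 3. In bulk testis, a lower share of spermatids and less of a transcript per spermatid cannot be told apart.

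A ratio of counts within a library needs no library size, and the question was whether the balance of the cluster's transcripts differed between genotypes. The ratio of Prm1 to Prm2 counts was 1.97, 2.58 and 1.60 for WT mice, 2.01, 1.99 and 2.19 for Prm2+/Δc mice and 1.41, 1.79 and 3.39 for Prm2-/Δc mice. Prm2-/Δc testes thus held the 2 extremes, the Prm2+/Δc values were close together, and the 3 ranges overlapped. The overlap of both edited genotypes rested on Prm2-/Δc replicate 3, without which all Prm2-/Δc ratios lay below those of Prm2+/Δc mice. The mean log2 ratio of WT mice was 1.01 ± 0.35 (SD, n = 3), that of Prm2+/Δc mice 1.04 ± 0.08 and that of Prm2-/Δc mice 1.03 ± 0.66. Per kilobase of annotated transcript (469 bases for Prm1 and 621 for Prm2), the mean ratio was 2.71, 2.73 and 2.91 in these genotypes, with a range of 1.87 to 2.36 in Prm2-/Δc testes without replicate 3. The 621 bases are those of unedited Prm2 and were used for every genotype. Since the Prm2Δc allele lacks the cP2 coding part, ratios per kilobase do not compare genotypes. A 3′ library gives reads from the transcript end whatever its length, so the ratio of counts is the main scale.

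The mean log2 ratio of Prm1 to Prm2 differed from WT by 0.04 (SE 0.21) in Prm2+/Δc testes, with p = 0.8 in an exact two-sided permutation test. The difference from WT was 0.02 (SE 0.43) in Prm2-/Δc testes, with p = 1 in the same exact test. With Prm2+/Δc subtracted from Prm2-/Δc, the difference was -0.01 (SE 0.38; exact permutation p = 1). These differences were smaller than the spread between mice of one genotype, and their sign depended on single libraries. Without Prm2-/Δc replicate 3 the difference of Prm2-/Δc from WT was -0.34 and that from Prm2+/Δc was -0.38 (exact permutation p = 0.4 and 0.1, the latter the smallest that 2 against 3 mice allow). Without WT replicate 3 the differences from WT were -0.13 for Prm2+/Δc and -0.14 for Prm2-/Δc mice, and without WT replicate 2 they were 0.22 and 0.20. The smallest exact permutation p that 3 against 3 mice allow is 0.1, so that none of the permutation tests of ratios could reach 0.05.

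The ratio of Tnp2 to Prm2 counts was 0.703, 0.747 and 0.634 in WT, 0.768, 0.820 and 0.740 in Prm2+/Δc and 0.790, 0.780 and 0.648 in Prm2-/Δc libraries. It spanned a narrower range than Prm1 to Prm2, with a highest value 1.29 times the lowest, against 2.41 times. WT replicate 3 and Prm2-/Δc replicate 3 were the lowest, both being libraries with high Prm2, and the genotypes overlapped. WT mice had a mean ratio of counts of 0.695 ± 0.0569 (SD, n = 3), Prm2+/Δc mice of 0.776 ± 0.0407 and Prm2-/Δc mice of 0.739 ± 0.0793. Per kilobase of transcript, with the length of unedited Prm2 in every genotype, the means were 0.779, 0.870 and 0.829, which do not compare genotypes.

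On the log2 scale, the Tnp2 to Prm2 ratio differed from WT by 0.16 (SE 0.08) in Prm2+/Δc testes (exact two-sided permutation test, p = 0.2). The difference was 0.09 (SE 0.12) in Prm2-/Δc testes with an exact permutation p of 0.5, and 0.18 without replicate 3 of that genotype. Without WT replicate 3 the differences from WT were 0.10 in Prm2+/Δc and 0.02 in Prm2-/Δc mice. Prm2-/Δc differed from Prm2+/Δc testes by -0.07 (SE 0.10; exact permutation p = 0.7), which changed to 0.02 without that replicate. The tests of these 2 ratios made 6 comparisons, and their Benjamini-Hochberg adjusted exact permutation p was 1 in each.

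**Figure D2:**
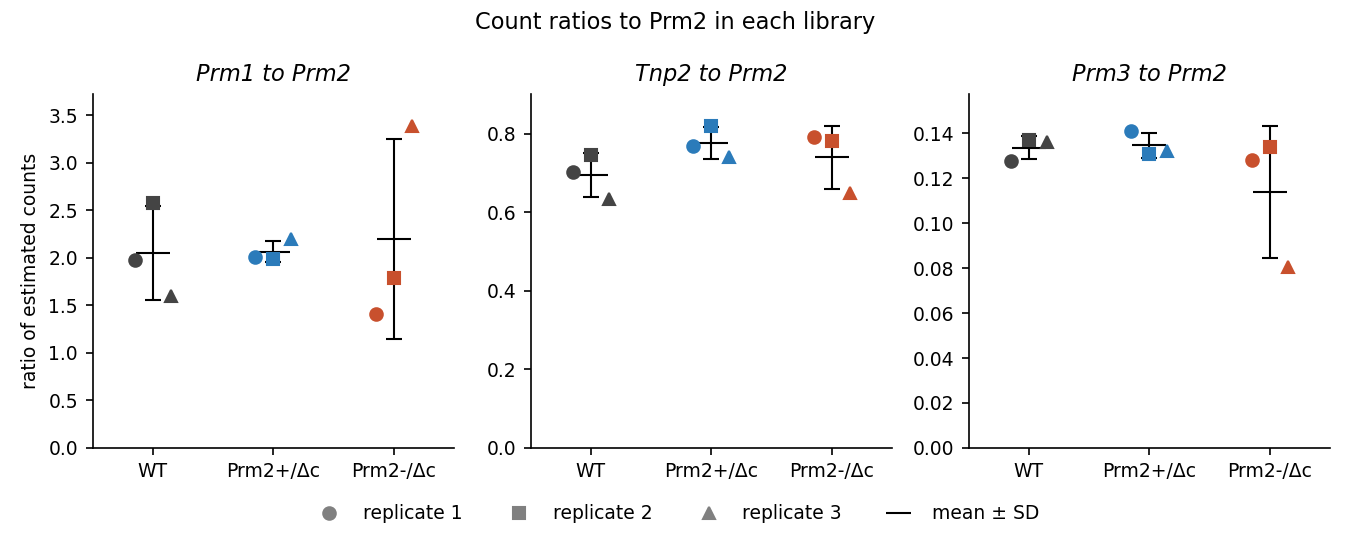
Ratio of estimated counts of Prm1, Tnp2 and Prm3 to those of Prm2 in each library, with 1 point per mouse and bars for the mean ± SD of 3 mice. The ratio of Prm1 to Prm2 ran from 1.41 to 3.39, both in Prm2-/Δc testes, and that of Prm3 to Prm2 lay between 0.128 and 0.141 in all libraries except Prm2-/Δc replicate 3, with 0.0803.

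The ratio of Prm3 to Prm2 was the steadiest of the 6 ratios among the 8 libraries other than Prm2-/Δc replicate 3. It was 0.128, 0.137 and 0.136 in WT, 0.141, 0.131 and 0.132 in Prm2+/Δc and 0.128 and 0.134 in the first 2 Prm2-/Δc libraries. In these 8 libraries the highest value was 1.11 times the lowest, and per kilobase of transcript (unedited Prm2 length) the ratio ran from 0.193 to 0.214. Prm2-/Δc replicate 3 had 0.0803.

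The other 3 ratios followed the same library. Prm1 to Tnp2 ran from 1.78 to 3.45 in the 8 libraries and was 5.23 in Prm2-/Δc replicate 3. Prm3 to Tnp2 ran from 0.160 to 0.215 and was 0.124 there, and Prm3 to Prm1 ran from 0.0532 to 0.0909 and was 0.0237 there.

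How the 4 loci varied together was described over the 9 libraries on the log2 scale of normalized counts. In Prm2-/Δc replicate 3, Prm1 was 1.08 above its median over the libraries and Prm2 was 0.23 above, while Prm3 deviated by -0.44 and Tnp2 by 0.08. The largest deviations in the other libraries were 0.34 and -0.34, both of Prm1. WT replicate 3 had Prm2 and Prm3 above their medians, by 0.15 and 0.25, with Prm1 and Tnp2 slightly below.

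**Figure D3:**
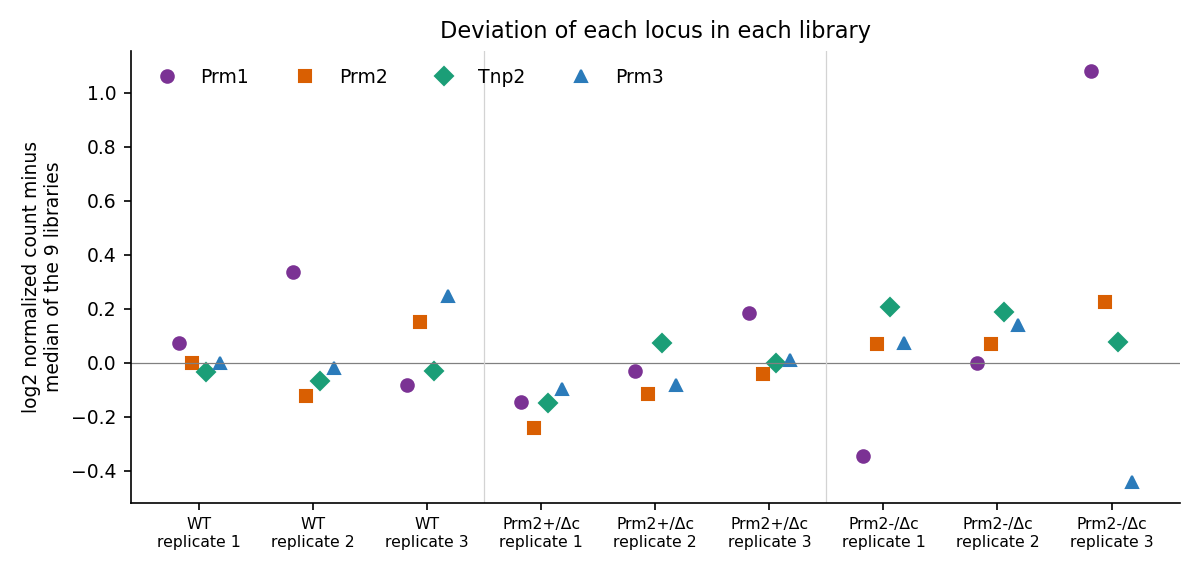
Log2 normalized count of each locus minus its median over the 9 libraries, for each mouse. Prm1 of Prm2-/Δc replicate 3 lies 1.08 above its median, and Prm2 and Prm3 deviate in the same direction in most of the other 8 libraries.

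Over all 9 libraries, 6 pairs of loci were compared. Prm1 and Prm3 were inversely related, with a Pearson r of -0.782 (exact permutation p = 0.0367, adjusted p = 0.220 over the 6 pairs) and a Spearman rho of -0.367 (exact permutation p = 0.336, adjusted p = 0.655). It was -0.851 for deviations from the genotype means (exact permutation p = 0.134). The relation rested on single libraries, since r was -0.142 without the 2 libraries farthest from the median of Prm1 (Prm2-/Δc replicates 1 and 3). Prm2 and Tnp2 had an r of 0.552 (exact permutation p = 0.123, adjusted 0.368) and a rho of 0.633 (exact permutation p = 0.0760, adjusted 0.456). This r was 0.329 without Prm2+/Δc replicate 1 and Prm2-/Δc replicate 3, the libraries farthest from the median of Prm2, and 0.187 for deviations from the genotype means.

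Prm2 and Prm3 had an r of -0.06 over the 9 libraries (exact permutation p = 0.887, adjusted 0.887) and a rho of 0.367 (exact permutation p = 0.336, adjusted 0.655). For deviations from the genotype means r was -0.07. Without the 2 libraries farthest from the median of Prm2 (Prm2+/Δc replicate 1 and Prm2-/Δc replicate 3), the same pair had an r of 0.928 (exact permutation p = 0.00218, adjusted p = 0.0131 over the 6 pairs) and a rho of 0.929 (exact permutation p = 0.00675, adjusted 0.0405). Without Prm2-/Δc replicate 3 alone, left out after its values had been seen, r was 0.919 and rho 0.952 (exact permutation p = 0.00131 and 0.00114, adjusted 0.00789 and 0.00685). Both settings leave out this library, so they are not separate findings, and adjustment over the 6 pairs does not cover leaving out libraries. Among 9908 loci, 21 (0.212%) had a higher r with Prm2 than Prm3 had in these 8 libraries, and 55.2% did over all 9 libraries.

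The pair that the protein ratio concerns, Prm1 and Prm2, had an r of 0.412 (exact permutation p = 0.280, adjusted 0.561) and a rho of 0.150 (exact permutation p = 0.708, adjusted 0.810). Without Prm2-/Δc replicate 3 the r was -0.252, and without the 2 libraries farthest from the median of Prm2 it was -0.619 (exact permutation p = 0.136). For Tnp2 with Prm3 and with Prm1, r was 0.0837 and -0.0641 (exact permutation p = 0.837 and 0.871, adjusted 0.887 for both), and rho was 0.300 and -0.100 (exact permutation p = 0.437 and 0.810, adjusted 0.655 and 0.810). Both changed sign without the 2 libraries farthest from the median of Tnp2, to -0.399 and 0.527. For deviations from the genotype means, Tnp2 and Prm3 had an r of 0.542 (exact permutation p = 0.0926, adjusted 0.403) and a rho of 0.650 (exact permutation p = 0.0417, adjusted 0.250). On the same scale r was -0.442 for Tnp2 and Prm1 and 0.346 for Prm2 and Prm1 (exact permutation p = 0.264 and 0.389).

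**Figure D4:**
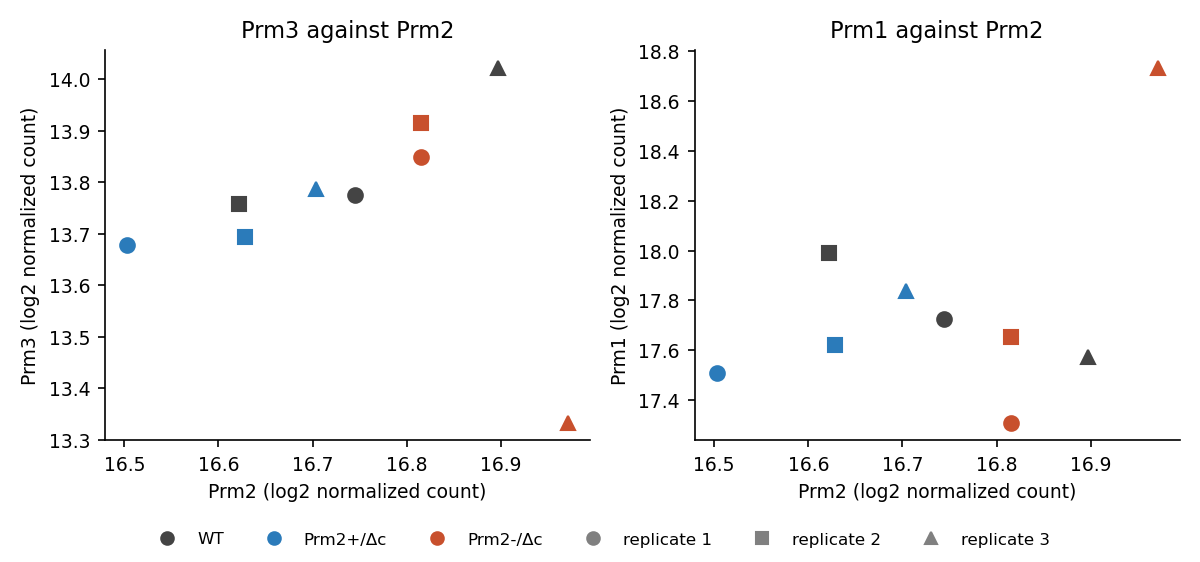
Log2 normalized counts of Prm3 (left) and Prm1 (right) against those of Prm2, with 1 point per mouse, colours for genotype and symbols for the replicate number. Prm3 rises with Prm2 in 8 libraries (r = 0.919), with Prm2-/Δc replicate 3 far below, while Prm1 shows no common line with Prm2 in the same 8 (r = -0.252).

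The 4 loci also differed in how much they varied between mice of one genotype. The pooled SD of the log2 normalized count was 0.08 for Tnp2, 0.11 for Prm2, 0.21 for Prm3 and 0.46 for Prm1. Among 458 loci with a mean of at least 5000 normalized counts, the median SD was 0.17, and 6.11% had a lower SD than Tnp2, 20.1% than Prm2, 62.7% than Prm3 and 90.4% than Prm1. With Prm2-/Δc replicate 3 left out, the SD was 0.07, 0.11, 0.10 and 0.20 in the same order, against a median of 0.12. The percentages of loci with a lower SD were then 11.4%, 39.7%, 35.6% and 78.6%, so that Prm1 remained the most variable of the 4 and Prm2 and Prm3 changed places.

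The ratios were also set beside the other loci of each library, a comparison made after the ratios had been seen. The first principal component of 2603 other loci with a mean of at least 1000 normalized counts held 25.3% of their variance. It set 3 libraries, WT replicate 3 and Prm2-/Δc replicates 1 and 2, apart from the other 6. Those 3 had the 3 lowest ratios of Prm1 to Prm2, 1.41 to 1.79, while the other 6 had 1.97 to 3.39. Since the libraries fell into 2 clusters, no correlation was computed across them, and within the 6 it was r = 0.786 (exact permutation p = 0.0528) and rho = 0.714 (exact permutation p = 0.136). The Tnp2 to Prm2 ratio did not separate these libraries, with 0.634 to 0.790 in the 3 and 0.648 to 0.820 in the 6. Within the 6 its r with the component was -0.612 (exact permutation p = 0.189) and its rho -0.543 (exact permutation p = 0.297). The part of this component in the ratio was not tested.

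Group levels were compared with edgeR's quasi-likelihood test across all loci, and loci were called when their log2 fold change was over 1 in size and their adjusted p (Benjamini-Hochberg) under 0.05. All 4 loci passed the filter on low counts, and 0 of them were called in any comparison. Among all loci, the share called was 0.0730% of 17815 in Prm2+/Δc against WT, 0.00567% of 17637 in Prm2-/Δc against WT and 0.0111% of 17986 between both edited genotypes. At an unadjusted edgeR p under 0.05 these comparisons had 659, 565 and 733 loci (3.70%, 3.20% and 4.08%), with 0 of the 4 among them. Leaving out Prm2-/Δc replicate 3 raised this to 884 loci (4.78%) for Prm2-/Δc against WT and to 1632 (8.73%) between both edited genotypes. Leaving out WT replicate 3 raised it to 1082 loci (6.04%) for Prm2+/Δc against WT. DESeq2 called 83 of 28284, 69 of 28264 and 108 of 28529 loci (0.293%, 0.244% and 0.379%), with 0 of the 4. Without Prm2-/Δc replicate 3, edgeR called 20 of 18486 loci (0.108%) in Prm2-/Δc testes against WT and 70 of 18687 (0.375%) against Prm2+/Δc testes, and again 0 of the 4. Tnp2 then had an unadjusted edgeR p of 0.0153 against WT (edgeR adjusted p = 0.907), where 4.78% of all loci were under 0.05. With all 9 libraries in one fit, the unadjusted edgeR p was 0.0383 for Tnp2 against WT and 0.0412 for Prm2 against Prm2+/Δc testes, where 4.41% and 4.13% of all loci were under 0.05. Without a filter it was 0.0426 for Prm2 against Prm2+/Δc testes, beside 3.45% of all loci.

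For Tnp2, the log2 fold change against WT was 0.20 (SE 0.09; edgeR adjusted p = 1) in Prm2-/Δc testes and 0.02 (SE 0.07; edgeR adjusted p = 0.999) in Prm2+/Δc testes. Its normalized counts did not overlap between Prm2-/Δc and WT or between Prm2-/Δc and Prm2+/Δc testes, being higher in Prm2-/Δc in both. Against Prm2+/Δc testes the nearest libraries differed by 0.227% in normalized counts (83240 in Prm2-/Δc replicate 3 and 83051 in Prm2+/Δc replicate 2), less than the spread between mice of one genotype. The distance depended on the scale, since the shares of library totals of the same 2 libraries were 0.618% and 0.592%. For Prm2, the log2 fold change between Prm2-/Δc and Prm2+/Δc testes was 0.25 (SE 0.11; edgeR adjusted p = 0.999), again without overlap. One of 4 loci was thus separately higher in Prm2-/Δc than in WT testes, beside 4.58% of all loci tested, and 0 of 4 were lower, beside 4.32%. Between Prm2-/Δc and Prm2+/Δc testes 2 of the 4 were higher, beside 4.71% of all loci, 1 of them being Tnp2 with this small distance, and 0 of 4 lower, beside 5.40%. Between Prm2+/Δc and WT testes all 4 overlapped, while 5.56% of all loci were separately higher and 4.61% lower.

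In Prm2+/Δc against WT testes, Prm1, Prm2 and Prm3 had log2 fold changes of -0.12 (SE 0.13), -0.15 (SE 0.09) and -0.14 (SE 0.09), each with an edgeR adjusted p of 0.999. Without WT replicate 3 these were -0.21 (SE 0.12), -0.08 (SE 0.08) and -0.05 (SE 0.06), and without WT replicate 2 the direction of Prm1 turned, to 0.01 (SE 0.12). For Prm1, the fold change in Prm2-/Δc against WT testes was 0.27 on the log2 scale (SE 0.38; edgeR adjusted p = 1), and it was -0.29 (SE 0.17; edgeR adjusted p = 0.907) without Prm2-/Δc replicate 3. Against Prm2+/Δc testes it was 0.37 (SE 0.38) and -0.18 (SE 0.15) without that library. Prm3 changed sign in the opposite direction, from -0.13 (SE 0.18) to 0.02 (SE 0.11) against WT and from -0.01 (SE 0.16) to 0.15 (SE 0.07) against Prm2+/Δc testes. Both edited genotypes were compared with the same WT libraries.

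**Figure D5:**
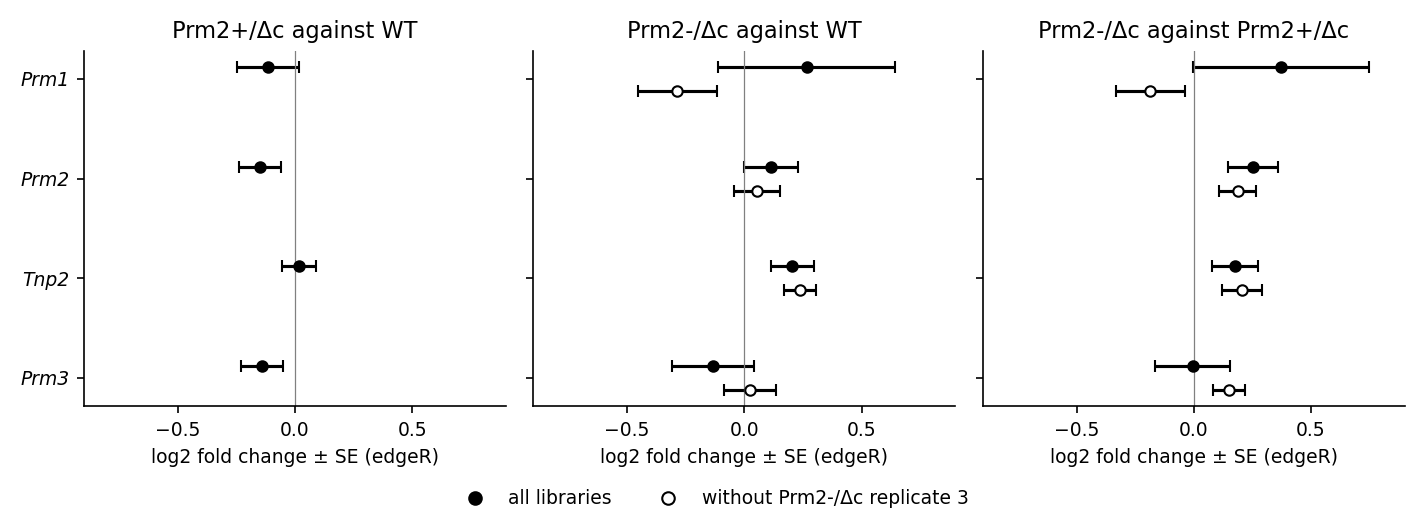
Log2 fold change of each locus in the 3 comparisons of genotypes (edgeR, bars for the standard error), with all libraries (filled) and without Prm2-/Δc replicate 3 (open). Prm1 moves from 0.27 to -0.29 against WT when this library is left out, while Tnp2 moves from 0.20 to 0.24.

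Ordered by CPM (library counts scaled to a common total) per kilobase of annotated transcript, Prm1 came first in every genotype, with a mean of 34967 ± 5334 (SD, n = 3) in WT testes. Prm2 followed with 13067 ± 1173 and Tnp2 with 10126 ± 148, and the ranges of these neighbours in the order did not overlap in WT (11915 to 14259 and 9974 to 10269). In Prm2+/Δc testes they were also apart, with 10976 to 12000 for Prm2 and 9452 to 10684 for Tnp2. Prm3 was lowest with 2647 ± 258 in WT testes. Prm1 in Prm2-/Δc testes had 41258 ± 24134, or 27448 without replicate 3, and remained first. Reads of a 3′ library do not grow with transcript length, so that division by length favours shorter transcripts. The length of Prm2 was also that of the unedited transcript in every genotype. Mean shares of counts, which use no length, gave the same order in each genotype.

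The loci whose profile over the 9 libraries was most like that of a member were all unnamed. For each of the 4, the 3 loci with the highest Pearson r among 9908 had values between 0.920 and 0.987, and none of these 12 loci carried a name. The highest was that of MSTRG.8831 with Prm3, at 0.987 and 0.984 without Prm2-/Δc replicate 3. The highest r with Prm1 was 0.979, that of MSTRG.2229, and it was 0.903 without the same library. With so many loci and 9 libraries, high values are a description only.

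Of 38 further genes of the histone-to-protamine exchange and of protamine transcription, storage and translation, 1 (2.63%) had a row with a name, so that the list was not summarised. This gene was Crem, a regulator of transcription in haploid germ cells, and its row is named because the study lists it among genes changed in these samples. A count per locus does not separate the transcripts of this gene. The choice of Crem is therefore not independent of these data. Normalized counts of Crem were 446, 440 and 1084 for WT mice, 2505, 2822 and 2389 for Prm2+/Δc mice and 311, 375 and 2048 for Prm2-/Δc mice. The Prm2+/Δc libraries lay above the others, and Prm2-/Δc replicate 3 lay nearer to them than to the rest of its own group. Of all loci tested, 5.56% were separately higher in Prm2+/Δc than in WT testes. Between both edited genotypes, 5.40% were separately lower in Prm2-/Δc testes. The log2 fold change of Crem against WT was 1.96 (SE 0.38; edgeR adjusted p = 0.770) in Prm2+/Δc and 0.49 (SE 0.81; edgeR adjusted p = 1) in Prm2-/Δc testes, and edgeR called neither. DESeq2 called Crem in Prm2+/Δc testes, with 1.97 (DESeq2 adjusted p = 1.43e-05), and edgeR did so without WT replicate 3, with 2.53 (edgeR adjusted p = 0.00543). In Prm2-/Δc against WT testes the direction turned without Prm2-/Δc replicate 3, to -0.94 (SE 0.47; edgeR adjusted p = 0.907). Against Prm2+/Δc testes it was -1.49 (SE 0.74; edgeR adjusted p = 0.999) with this library, and -2.92 (SE 0.15; edgeR adjusted p = 0.00373) and called without it.

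Markers of the tissue could be read only in part. Of 8 further spermatid and 6 spermatocyte markers, 0 had a named row, so that the spermatid content of a library was not measured apart from the 4 loci themselves. Reads of a gene can lie in an unnamed StringTie locus, as those of the 4 loci do, so that a named row with few or 0 counts does not show that a gene was silent. All 5 epididymis markers had a row with 0 counts in every library. Hbb-bs, the only blood marker of 3 with a named row, had 381 to 578 normalized counts in WT libraries, 783 to 1415 in Prm2+/Δc libraries and 567 to 1137 in Prm2-/Δc libraries. WT and Prm2+/Δc libraries did not overlap, beside 5.56% of all loci tested that were separately higher in Prm2+/Δc than in WT testes. Prm2-/Δc replicate 3 had 1137, the highest but 1 of all libraries. Whether blood content differed was not tested. The 3 spermatogonia markers of 6 with a named row summed to 117 to 156 normalized counts in WT, 97.0 to 139 in Prm2+/Δc and 79.7 to 117 in Prm2-/Δc libraries. Lhcgr (Leydig cells) and Adgre1 (macrophages) had at most 26.5 and 22.3 normalized counts in a library, and Amh (Sertoli cells) had 0.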

How the data were processed

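Testis RNA of 9 mice was analysed. The authors prepared 3′ mRNA libraries (QuantSeq), mapped 50 bp reads with HISAT2 2.1 to GRCm38 and assembled loci with StringTie 1.3.3. They deposited estimated counts (expected counts) per locus, made from coverage by StringTie's script. All columns were used, and 0 values were not whole. Locus names came from sheets of the study for 150 StringTie loci. The members and lists were chosen with earlier results of these data known.

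Shares are counts over the library total, and ratios are counts over counts of the same library. Groups were compared with edgeR 4.0.16 (TMM, filterByExpr, the 2 groups compared, Benjamini-Hochberg over all loci) in R 4.3.3, and ratios with exact permutation tests. Standard errors in edgeR are the absolute log2 fold change over the square root of F. Normalized counts used DESeq2-type size factors over all 9 libraries. Genes named were the 4 loci, the most abundant row, the 3 loci most like each member (unnamed, at most 2 printed) and listed pathway genes with a named row. Outside this rule, the antisense gene Gm46563 is named for its overlap with Prm1. Also named are 4 cell type markers with a named row, chosen after their values were seen. Alternatives were DESeq2 1.42.0, other normalizations, no filter, all libraries in one fit, the replicate number as a block and leaving out each library. Transcript lengths came from GENCODE and promoters from RefSeq. Leaving out Prm2-/Δc replicate 3 for correlations, the ratios other than Prm1 to Prm2 and Tnp2 to Prm2, the spread of shares, the alternatives for Crem and the first principal component were chosen after seeing the data.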

Additional observations from a re-analysis of the deposited data

How the results depend on the processing

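With single libraries left out, the log2 difference in the Prm1 to Prm2 ratio ranged from -0.13 to 0.22 (Prm2+/Δc against WT), -0.34 to 0.29 (Prm2-/Δc against WT) and -0.38 to 0.25 (Prm2-/Δc against Prm2+/Δc). For the Tnp2 to Prm2 ratio the ranges were 0.10 to 0.22, 0.02 to 0.18 and -0.13 to 0.0179. The Prm1 to Prm2 difference between both edited genotypes, -0.01 as reported, changed sign with 3 methods. It was 0.13 as a difference of mean linear ratios (not on the log2 scale), and on the log2 scale 0.0581 for summed counts and 0.0879 in edgeR with Prm2 as library size (adjusted p = 0.927). No exact permutation p of a ratio could pass 0.05 with 3 mice, so the permutation tests say nothing about stability.

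Leaving out a library moved the log2 fold change of Prm1 between -0.21 and 0.00802, -0.29 and 0.53, and -0.18 and 0.63 in the 3 comparisons, that of Prm3 against WT and Prm2+/Δc in Prm2-/Δc testes between -0.24 and 0.0228 and between -0.11 and 0.15, and that of Tnp2 in Prm2+/Δc testes between -0.0318 and 0.0769. In Prm2+/Δc against WT testes, Prm2 kept its direction between -0.21 and -0.08 and Prm3 between -0.19 and -0.05. With library totals in edgeR, Tnp2 in Prm2+/Δc testes had -0.0143. For Crem, whose alternatives were added after seeing the data, the log2 fold change in Prm2-/Δc against WT testes ranged from -0.94 to 1.05 with single libraries left out.

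The number of loci called, 13, 1 and 2, was 83, 69 and 108 with DESeq2, 5, 7 and 4 with all 9 libraries in one fit, and 6 between both edited genotypes without a filter. With single libraries left out it ranged from 12 to 37, 0 to 20 and 0 to 70. With the replicate block it was 3, 0 and 0, but same-numbered libraries did not deviate together (r between -0.295 and 0.0671; 2 of 9 libraries correlated best with their own number), and the labels do not say that the numbers pair mice.

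For the correlations, r of Prm1 with Prm3 was -0.743 in CPM, -0.851 for deviations from genotype means and -0.142 without the 2 libraries farthest from the median (exact permutation p = 0.0517, 0.134 and 0.761). Tnp2 with Prm3 and with Prm1 changed to -0.178 and 0.0709 in CPM, and to -0.399 and 0.527 without 2 libraries. Prm2 with Prm1 and with Prm3 changed to -0.619 and 0.928. Without Prm2-/Δc replicate 3, an alternative chosen after seeing the data, r was 0.577 (Prm2 and Tnp2), -0.252 (Prm2 and Prm1), 0.919 (Prm2 and Prm3), 0.374 (Tnp2 and Prm3), -0.418 (Tnp2 and Prm1) and -0.197 (Prm1 and Prm3). The cause of these changes was not tested.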
